A study of Homo sapiens with 24 samples.

Results

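RUVBL1 and RUVBL2 are AAA+ ATPases that form a joint ring. With RPAP3 and PIH1D1 they make up the R2TP co-chaperone of HSP90, which helps to assemble box C/D and H/ACA snoRNPs, RNA polymerase II and the PIKK kinases, and the same ATPases are subunits of the INO80, SRCAP and TIP60 chromatin complexes. CB-6644 is a small molecule that inhibits the RUVBL1/2 ATPase. The comparison described here asked what CB-6644 did to the background RNA of such a pulldown, that is, the RNA that stayed on agarose beads carrying no anti-GFP binder.

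The cells were HCT116, an established line of human colorectal carcinoma, in which CRISPR/Cas9 had fused GFP to RUVBL1. Every library in the comparison carried that knock-in and was made from uncoupled beads. Of the 24 libraries of the study, 8 entered, and all genes of the count table were considered. The 4 libraries with CB-6644 (0.5 µM, 16 h) were 2 with CB-6644 alone and 2 with CB-6644 plus puromycin (100 µg/mL, 30 min), an antibiotic that ends translation by releasing unfinished chains. The 4 libraries without CB-6644 were 2 untreated and 2 with puromycin. The sources used here do not say whether the knock-in line was 1 clone, nor whether the replicates were grown as cultures of their own. The p-values therefore reflect the scatter of these libraries alone, and that scatter may be technical. No input library was used here, so a change of an RNA in the lysate and a change in how much of it stuck to the beads cannot be told apart. In such bulk RNA, fewer cells with an RNA and less of it per cell cannot be told apart either.

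Total counts per library ranged from 10974407 to 27883137, the lowest being untreated replicate 2. RN7SK, the 7SK RNA that holds P-TEFb inactive, was the leading gene of every library and took 2.04% to 4.68% of counts. Replicates correlated at r = 0.942 to 0.970 across genes in log2 CPM, counts scaled by depth and by the TMM factor. The untreated pair was the least alike. Untreated replicate 2 stood apart at 86.1 on the first principal component (26% of variance), where the other 7 lay between -40.2 and 5.94, and untreated replicate 1 was lowest on the second (16.8%) at -49.3, where the other 7 lay between -30.1 and 34.0. Of 24 colon epithelial markers 13 passed the filter on low counts, KRT8, KRT18, KRT19 and EPCAM among them. Another 11 had under 30 counts summed over the 8 libraries. These were CDH17, VIL1, CDX1, LGR5, ASCL2, CEACAM5, CEACAM6, LGALS4, FABP1, TFF3 and TSPAN8, of which TFF3 and TSPAN8 were at 0 in all 8. The 13 that passed summed to 3855 to 4270 CPM with CB-6644 and 3859 to 5176 CPM without. Of 15 markers of blood, stromal, endothelial and liver cells 5 passed the filter. These 5 summed to 22.6 to 28.4 CPM with CB-6644 and 24.1 to 26.3 CPM without.

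In the main fit, few background RNAs were called for a change with CB-6644, and that count depended on which libraries entered. A box C/D snoRNA, SNORD15B, rose together with the mRNAs of CREBZF, PSMC3IP, SLC4A3 and UPF3B. The RNAs that fell were histone mRNAs H3C4, H2AC6 and H4C8, the U1 variants RNVU1-14 and RNVU1-15, the H/ACA snoRNAs SNORA50C and SNORA57, the snoRNA host transcript SNHG12 and the mRNA of DCAF16. In all, 14 of 15060 genes tested (0.093%) were called at an adjusted p under 0.05 by the quasi-likelihood test of edgeR with puromycin as a covariate. Of these, 5 rose (0.0332%) and 9 fell (0.0598%), where upper-quartile scaling gave 8 and 9, total-count scaling 2 and 5, DESeq2 28 and 34, and no filter on low counts 41 and 36. The median log2 change over all genes was -0.01, and 1245 genes had an unadjusted p under 0.05. In 13 of the 14, the 4 CB-6644 libraries did not overlap the other 4 in CPM, here called separated. The 14 were called on the same contrast of these libraries, which favours that outcome. Separation of a called gene is therefore no separate support. Among all genes tested, 325 were separated upward (2.16%) and 315 downward (2.09%). The called genes were 8 protein-coding and 6 non-coding. Only SNORD15B, H3C4 and RNVU1-14 were called in every setting that tested them and every leave-one-out fit.

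Leaving out 1 library changed which genes were called. Without CB-6644 replicate 1 or 2, 4 and 6 of the 14 remained. Without CB-6644+puromycin replicate 1 or 2, 9 and 5 remained. Without untreated replicate 1 or 2, 14 and 13 remained, while the total of calls went up to 440 and 28. Without puromycin replicate 1 or 2, 7 and 4 remained.

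**Figure D1:**
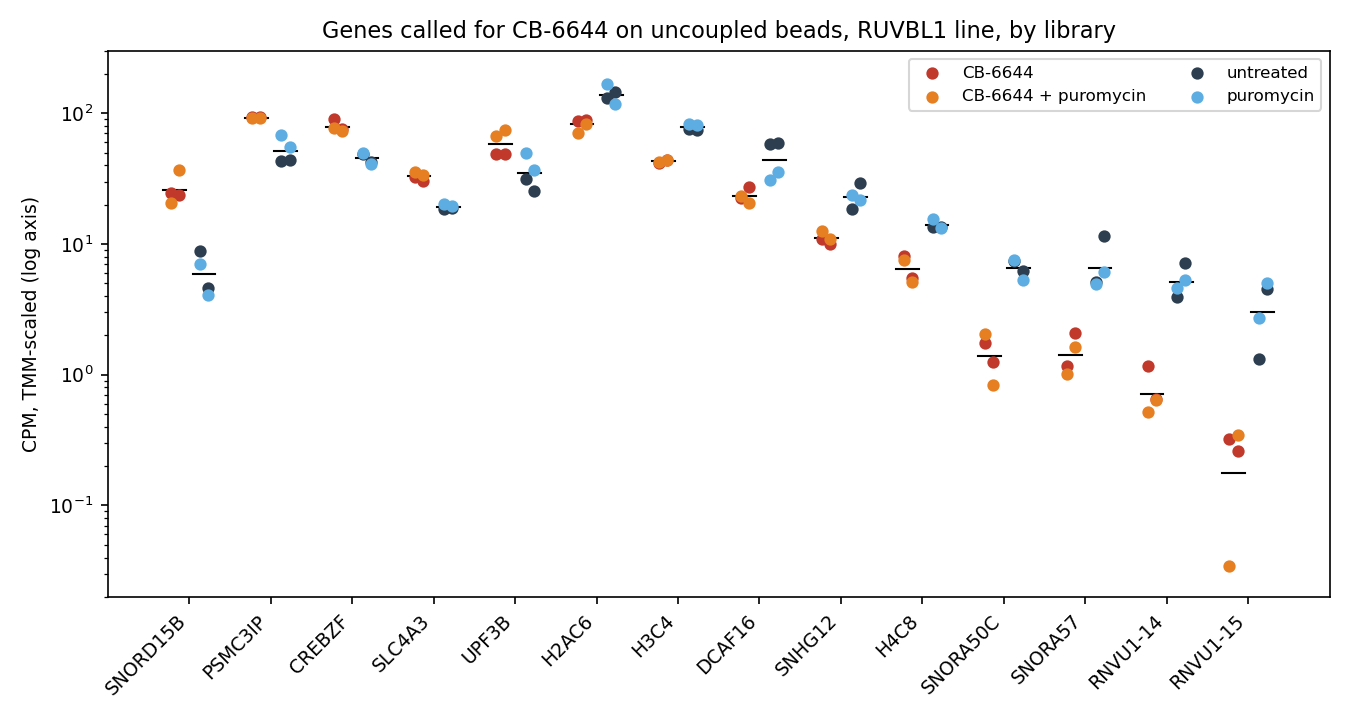
CPM of the 14 called genes in each of the 8 uncoupled-bead libraries on a log axis, with CB-6644 libraries left of the others at each gene and a bar at each geometric mean. Only UPF3B has CB-6644 libraries that overlap the others, and RNVU1-15 in CB-6644+puromycin replicate 1 lies lowest at 0.0346 CPM.

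Replication-dependent histone genes encode the bulk of chromatin's histones in S phase. Their mRNAs carry no poly(A) tail and end in a stem-loop. Of 63 such genes listed, 62 were in the table and 43 passed the filter. Of the 43, 3 fell, 0 rose, and 37 had a log2 change below 0, as had 7838 of all 15060 genes tested. The median was -0.42, against -0.01 over all genes. The 4 CB-6644 libraries lay below all 4 others in 13 of the 43 (30.2%), against 2.09% of all genes, and above them in 0. An unadjusted p under 0.05 went with 22 lower and 0 higher of the 43 members, against 671 lower and 574 higher of all 15060 genes tested.

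H3C4, which encodes a histone H3, had 41.6 and 44.0 CPM with CB-6644 and 42.2 and 43.9 CPM with CB-6644+puromycin, against 75.6 and 74.3 CPM untreated and 83.2 and 81.2 CPM with puromycin. The groups lay far apart, and the spread within each was small. H3C4 was 1.83-fold lower with CB-6644 (log2 -0.87 ± 0.11 SE, edgeR adjusted p 0.004). H2AC6, a histone H2A gene, had 87.7 and 88.2 CPM with CB-6644 and 71.1 and 82.8 CPM with CB-6644+puromycin, against 129.7 and 144 CPM untreated and 168 and 118 CPM with puromycin. All 4 CB-6644 libraries were below the other 4, among which the puromycin pair differed most. The log2 change of H2AC6 was -0.77 ± 0.14 (edgeR adjusted p 0.046). H4C8, a histone H4 gene, had 8.06 and 5.48 CPM with CB-6644 and 7.51 and 5.13 CPM with CB-6644+puromycin, against 13.6 and 13.5 CPM untreated and 15.4 and 13.2 CPM with puromycin. Again no libraries overlapped, and H4C8 fell by 1.09 ± 0.20 on the log2 scale (edgeR adjusted p 0.048).

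The next histone genes by p missed the threshold with separated libraries: H2BC18 at log2 -0.65 ± 0.12 (edgeR adjusted p 0.062) and H2AC15 at -0.74 ± 0.15 (edgeR adjusted p 0.073). By class, the median log2 change was -0.60 over 8 H4 genes, -0.59 over 8 H3 genes, -0.42 over 3 linker H1 genes, -0.38 over 11 H2A genes and -0.26 over 13 H2B genes. Each class lay below 0. Members above 0 with the largest values, H1-3 and H2AC8, were scarce, with means of 0.272 and 1.95 CPM with CB-6644 and 0.136 and 1.17 CPM without.

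The summed CPM of the 43 tested histone genes was 5528 and 5568 with CB-6644 and 4287 and 4490 with CB-6644+puromycin. Without CB-6644 it was 5956 and 5462 untreated and 8635 and 6188 with puromycin. The groups overlapped in this sum, since untreated replicate 2 lay below both CB-6644 libraries. Puromycin replicate 1 was highest. Without it the median of the list was -0.29, the weakest of the 8 leave-one-out fits (the strongest was -0.49). Those fits called 1 member lower, except 11 without untreated replicate 1 and 9 without untreated replicate 2. Within puromycin-treated cells the median was -0.71 with 43 of 43 members below 0, and without puromycin it was -0.11 with 26 of 43 below 0. Of all 15060 genes tested, 7310 were below 0 with puromycin (median 0.01) and 8335 without it (median -0.05). The histone shift without puromycin thus lay near that of all genes. No histone gene was called for a difference between the puromycin states (the smallest adjusted p was 0.266, edgeR interaction test). Genes for DNA replication showed 0 calls among 40 tested with a median of -0.01, and mitotic genes 0 among 38 with -0.08. With 0.093% of all genes called, 0 calls in lists of this size is near that share. RRM2, a subunit of ribonucleotide reductase, had the smallest p of the replication list at log2 -0.54 ± 0.13 (edgeR adjusted p 0.245). Many histone genes are near-identical, so reads could have been split among copies, and the annotated span of H3C4 also holds H2AC7, which was not tested.

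**Figure D2:**
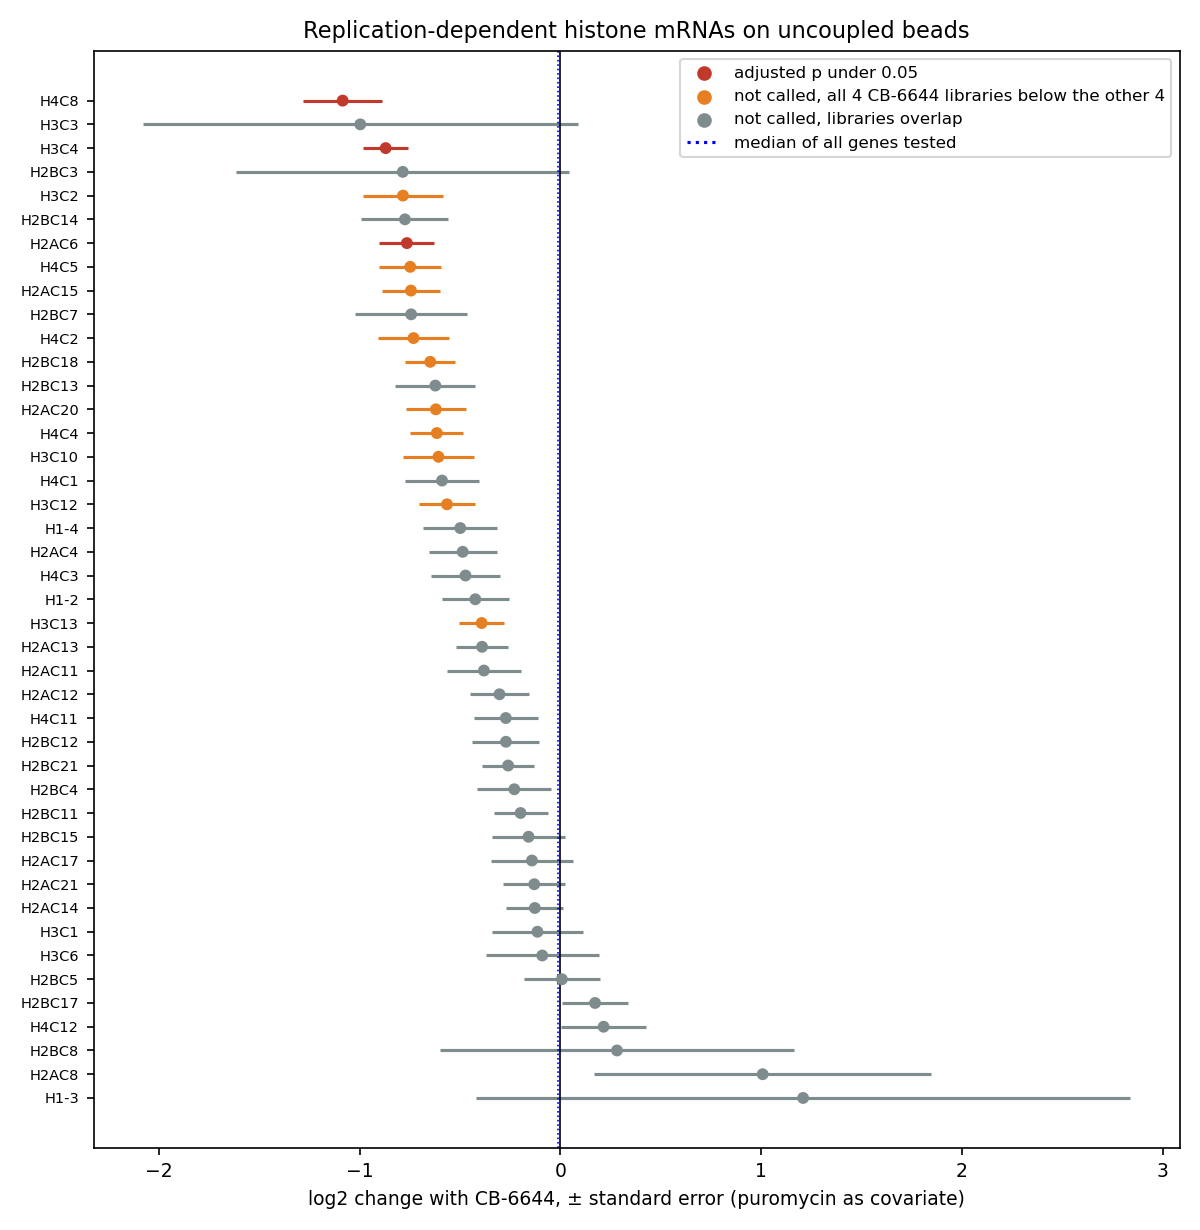
Log2 change with CB-6644 of the 43 histone genes tested, with standard errors. Called members (red) and separated members (orange) crowd the lower end, 37 points lie below 0, and the wide bars belong to scarce mRNAs such as H1-3.

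The 250 bases before the annotated start of the 3 called histone genes are printed to show the promoters whose genes moved together. They are from RefSeq (GRCh38.p14), 5′ to 3′ on the gene's strand, with each CCAAT or its reverse ATTGG, and each TATAAA or its reverse TTTATA, in capitals. The H3C4 stretch is chr6:26197287-26197536 (minus strand). RefSeq also gives H3C4 a start further upstream that it shares with H2AC7, and that one was left out. The H2AC6 stretch is chr6:26123922-26124171 (plus) and that of H4C8 is chr6:26285535-26285784 (minus).
H3C4: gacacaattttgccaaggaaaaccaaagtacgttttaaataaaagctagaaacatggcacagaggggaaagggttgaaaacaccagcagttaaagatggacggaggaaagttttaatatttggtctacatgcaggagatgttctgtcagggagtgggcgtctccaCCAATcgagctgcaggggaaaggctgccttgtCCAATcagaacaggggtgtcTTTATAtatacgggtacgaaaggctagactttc
H2AC6: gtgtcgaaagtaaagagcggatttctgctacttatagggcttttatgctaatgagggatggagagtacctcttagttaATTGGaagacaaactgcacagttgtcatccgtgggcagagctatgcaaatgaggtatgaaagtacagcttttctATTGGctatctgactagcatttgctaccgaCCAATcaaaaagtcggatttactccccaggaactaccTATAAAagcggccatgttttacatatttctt
H4C8: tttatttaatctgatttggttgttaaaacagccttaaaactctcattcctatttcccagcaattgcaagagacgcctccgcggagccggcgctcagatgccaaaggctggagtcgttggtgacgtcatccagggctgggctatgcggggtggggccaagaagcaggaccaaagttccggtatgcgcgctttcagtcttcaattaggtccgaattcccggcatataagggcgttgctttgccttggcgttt
H3C4 held CCAAT at 85 and 53 bases before the start and the reverse of TATAAA at 33. H2AC6 held CCAAT on either strand at 172, 98 and 68, with a TATAAA at 31. H4C8 held neither of these exact motifs. Motifs were counted on both strands over windows from 250 bases before to 50 after the start, 1 per gene. CCAAT was in 33 of 39 promoters of tested histone genes (84.6%), against 36.4% of the 11626 promoters of all tested genes and 35.7% of all 27305. TATAAA was in 31 (79.5%), against 5.77% and 12.0%, and the octamer core TTTGCAT in 18 (46.2%), against 2.99% and 4.50%. The E-box CACGTG was in 0 of 39, against 10.01% and 7.43%. Among the 12 separated histone genes with a promoter entry, 8 held CCAAT, 8 TATAAA and 3 TTTGCAT, and among the other 27 the counts were 25, 23 and 15. A match describes letters in the window and is not a bound site.

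U1 snRNA pairs with the 5′ splice site, and RNVU1 genes encode sequence variants of it. This group was put together after values had been seen, so its counts are a description. Of 13 RNVU1 genes listed, 5 passed the filter, 2 fell, and 4 had all CB-6644 libraries below the rest, against 2.09% of all genes. All 5 tested were scarce, and a scarce gene can pass the filter on low counts through the libraries without CB-6644 alone. The share below and the summed levels are therefore partly set by the filter and are no separate support. The 5 summed to 2.55 and 2.68 CPM with CB-6644 and 1.73 and 3.11 CPM with CB-6644+puromycin. Without CB-6644 the 5 summed to 9.03 and 16.6 CPM untreated and 13.7 and 15.5 CPM with puromycin. The sums did not overlap. RNVU1-14 (chr1:145281116-145281279) had 1.16 and 0.648 CPM with CB-6644 and 0.519 and 0.641 CPM with CB-6644+puromycin, against 3.92 and 7.13 CPM untreated and 4.58 and 5.27 CPM with puromycin. These rest on 13 to 25 counts in each CB-6644 library and 74 to 94 in each of the others, with no overlap. RNVU1-14 was 7.11-fold lower with CB-6644 (log2 -2.83 ± 0.37, edgeR adjusted p 0.004).

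RNVU1-15 had 7, 6, 1 and 7 counts in the CB-6644 libraries, against 31 and 47 untreated and 56 and 90 with puromycin. It averaged 0.241 ± 0.142 CPM with CB-6644 and 3.40 ± 1.71 CPM without (SD, n = 4 each), a log2 change of -3.82 ± 0.64 (edgeR adjusted p 0.026). RNVU1-6 and RNVU1-19 were separated the same way but not called, at log2 -3.76 ± 0.90 (edgeR adjusted p 0.229) and -1.83 ± 0.50 (0.336). RNVU1-7 overlapped, with 0.681 ± 0.342 CPM with CB-6644 and 1.21 ± 0.434 CPM without (SD, n = 4 each). The canonical RNU1-1, RNU1-2, RNU1-3 and RNU1-4 were listed at 0 in every library, and near-identical U1 copies can share or lose reads, so the split among variants is uncertain. RNVU1-14 and RNVU1-15 average under 5 CPM over the 8 libraries, below the level required of genes named for the size of their change.

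Over the 14 snRNA genes tested apart from RN7SK, the RNVU1 genes included, 12 had a log2 change below 0 and the median was -1.39. The limit set by the filter applies to the scarce genes among them too. RNU5F-1, a variant of the U5 snRNA at the spliceosome's core, had 1.02 and 0.605 CPM with CB-6644 and 0.588 and 1.09 CPM with CB-6644+puromycin, against 1.36 and 5.97 CPM untreated and 1.51 and 2.58 CPM with puromycin. It was separated but not called (log2 -1.72 ± 0.53, edgeR adjusted p 0.447). The U4 genes RNU4-1 and RNU4-2 lay on the other side at log2 0.59 ± 0.36 and 0.51 ± 0.35, both with overlapping libraries. RN7SK overlapped as well, at log2 -0.42 ± 0.27.

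**Figure D3:**
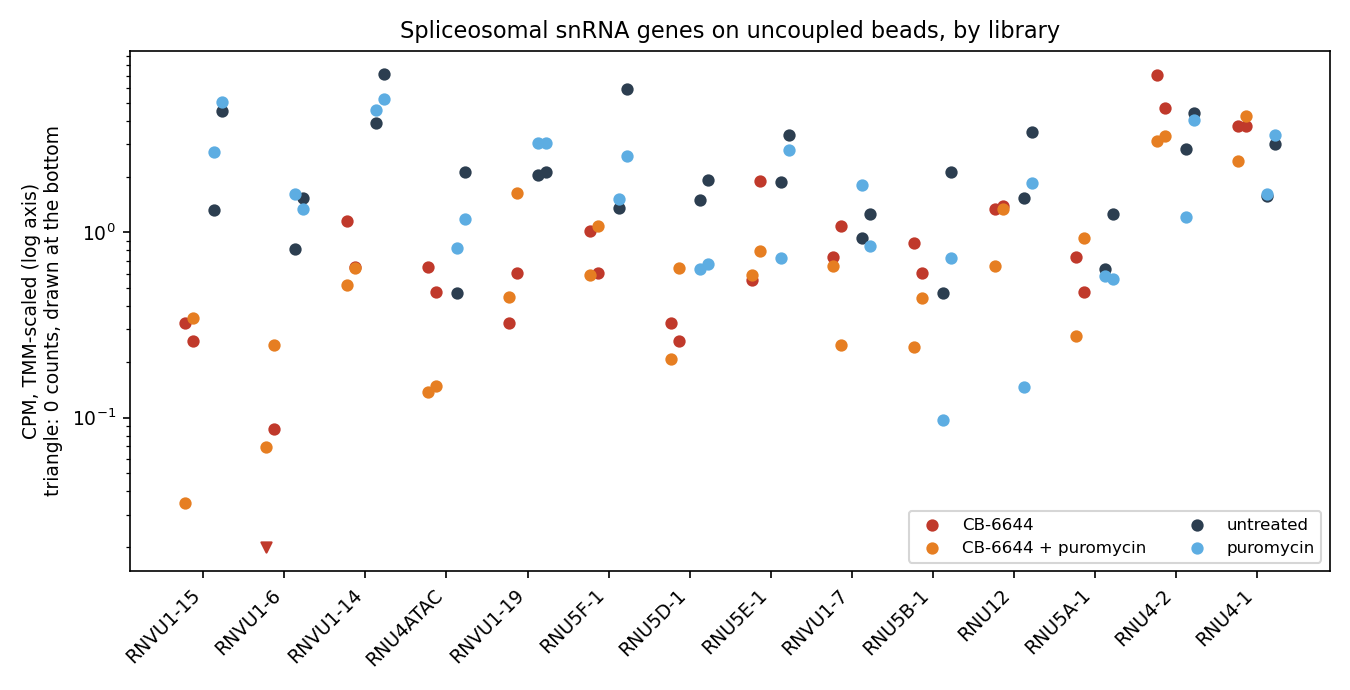
CPM of the 14 spliceosomal snRNA genes tested in each library on a log axis, CB-6644 libraries left of the others at each gene, ordered by log2 change. RNVU1-15, RNVU1-6, RNVU1-14, RNVU1-19 and RNU5F-1 show no overlap, and the triangle marks RNVU1-6 at 0 counts in CB-6644 replicate 1.

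Box C/D snoRNAs guide 2′-O-methylation of ribosomal RNA and box H/ACA snoRNAs guide its pseudouridylation. SNORD15B, a C/D snoRNA within the span of the ribosomal protein gene RPS3 (chr11:75404421-75404566), had 24.5 and 23.5 CPM with CB-6644 and 20.5 and 36.8 CPM with CB-6644+puromycin, against 8.77 and 4.62 CPM untreated and 7.06 and 4.09 CPM with puromycin. Every CB-6644 library was above every other library. SNORD15B was 4.22-fold higher with CB-6644 (log2 2.08 ± 0.25, edgeR adjusted p 0.0035). RPS3 itself was at log2 -0.03 ± 0.19, with 3359.8 ± 777 CPM with CB-6644 and 3371 ± 789 CPM without (SD, n = 4 each).

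SNORD15B was the 1 call in its class. Of 357 C/D snoRNAs listed, 69 passed the filter, 1 rose, 0 fell, and the median was -0.03. SNORD8 was also separated upward (log2 1.52 ± 0.70, edgeR adjusted p 0.591), while SNORD104, SNORD2 and SNORD13 were separated downward without a call. SNORD15A, also within RPS3, was at log2 1.88 and not called (edgeR adjusted p 0.706). The summed CPM of the 69 tested C/D snoRNAs, SNORD15B included, was 124 to 206 with CB-6644 and 96.1 to 136 without. Among 14 scaRNAs, which guide modification of snRNAs in Cajal bodies, 0 were called (0.093% of all genes were) and the median was 0.19.

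SNORA50C (chr17:64146339-64146471), a box H/ACA snoRNA, had 1.76 and 1.25 CPM with CB-6644 and 2.04 and 0.839 CPM with CB-6644+puromycin, against 7.41 and 6.26 CPM untreated and 7.50 and 5.32 CPM with puromycin. All 4 CB-6644 libraries were below the rest, and SNORA50C was 4.45-fold lower with CB-6644 (log2 -2.15 ± 0.31, edgeR adjusted p 0.013). It lies beside SNHG25, whose span holds SNORD104. SNHG25 and SNORD104 were at log2 -0.74 ± 0.27 and -0.98 ± 0.32, and neither was called. SNORA57 (chr11:62665422-62665570), also of the H/ACA class, had 1.16 and 2.07 CPM with CB-6644 and 1.00 and 1.63 CPM with CB-6644+puromycin, against 5.15 and 11.6 CPM untreated and 4.92 and 6.05 CPM with puromycin. The groups did not overlap, and untreated replicate 2 was highest. SNORA57 was 4.62-fold lower with CB-6644 (log2 -2.21 ± 0.33, edgeR adjusted p 0.017). The 2 genes that span SNORA57, LBHD1 and CSKMT, were at log2 0.06 ± 0.59 and -0.48 ± 0.28 and were not called.

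SNORA50C and SNORA57 averaged under 5 CPM, and 17 to 59 counts stood behind each CB-6644 library. Over the class, 182 H/ACA snoRNAs were in the table, 61 passed the filter, 2 fell, 0 rose, and the median was 0.01. An unadjusted p under 0.05 went with 11 lower and 1 higher of the 61, against 671 and 574 of all 15060 genes tested. All 4 CB-6644 libraries lay below the rest in 5 (8.2%) and above in 1 (1.64%), against 2.09% and 2.16% of all genes. Scarce members can pass the filter through the libraries of 1 side alone. SNORA21, within RPL23, was separated downward without a call (log2 -1.40 ± 0.32, edgeR adjusted p 0.182), and RPL23 was at log2 0.01 ± 0.17. TERC, the telomerase RNA, which carries an H/ACA domain, had log2 -0.70 ± 0.15 (edgeR adjusted p 0.135) and overlapping libraries. In the table's annotation, 133 tested small RNAs lay within 96 tested genes, of which 1, SNHG12, was called.

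SNHG12, a non-coding host of snoRNAs, had 10.8 and 9.93 CPM with CB-6644 and 12.5 and 11.0 CPM with CB-6644+puromycin, against 18.4 and 29.3 CPM untreated and 23.8 and 21.6 CPM with puromycin. The groups were separate. SNHG12 fell by 1.07 ± 0.17 on the log2 scale (edgeR adjusted p 0.021), and it was the 1 call among 19 snoRNA host genes tested, whose median was -0.03. Within its span, SNORA16A was at log2 -0.40 (edgeR adjusted p 0.939) and SNORD99 at 0.19 (edgeR adjusted p 0.972). Both were scarce, with means of 0.91 and 0.678 CPM. SNHG3 was lower in all 4 CB-6644 libraries without a call (log2 -0.68 ± 0.16, edgeR adjusted p 0.177).

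Of the mRNAs outside the histones, 4 rose and 1 fell. CREBZF, a bZIP transcription regulator, had 90.8 and 75.7 CPM with CB-6644 and 77.3 and 73.2 CPM with CB-6644+puromycin, against 48.3 and 42.7 CPM untreated and 49.99 and 41.2 CPM with puromycin. No libraries overlapped, and CREBZF was 1.74-fold higher with CB-6644 (log2 0.80 ± 0.12, edgeR adjusted p 0.021). PSMC3IP, a protein needed for meiotic recombination, had 92.8 and 93.8 CPM with CB-6644 and 91.2 and 92.0 CPM with CB-6644+puromycin, against 42.7 and 43.8 CPM untreated and 67.9 and 55.4 CPM with puromycin. Its level was nearly the same in the 4 CB-6644 libraries, and the puromycin pair lay between these and the untreated pair. The log2 change of PSMC3IP was 0.84 ± 0.14 (edgeR adjusted p 0.023).

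SLC4A3, an anion exchanger, had 32.7 and 30.1 CPM with CB-6644 and 35.3 and 33.8 CPM with CB-6644+puromycin, against 18.5 and 18.7 CPM untreated and 20.2 and 19.6 CPM with puromycin. The groups were separate and tight, and SLC4A3 rose by a log2 change of 0.78 ± 0.13 (edgeR adjusted p 0.023). DCAF16, a substrate receptor of CUL4 ubiquitin ligases, had 22.3 and 27.5 CPM with CB-6644 and 23.4 and 20.7 CPM with CB-6644+puromycin, against 57.9 and 59.0 CPM untreated and 30.7 and 35.7 CPM with puromycin. Here the untreated pair was highest and the puromycin pair lay nearer to the CB-6644 libraries. DCAF16 fell by 0.91 ± 0.15 on the log2 scale (edgeR adjusted p 0.026).

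UPF3B links exon junction complexes to nonsense-mediated decay (NMD), the pathway that degrades mRNAs with early stop codons. It had 48.7 and 48.3 CPM with CB-6644 and 66.4 and 74.7 CPM with CB-6644+puromycin, against 31.5 and 25.5 CPM untreated and 49.5 and 36.7 CPM with puromycin. Puromycin replicate 1 lay just above both libraries with CB-6644 alone, but within either puromycin state the CB-6644 libraries were higher. UPF3B rose by a log2 change of 0.74 ± 0.13 (edgeR adjusted p 0.046). Of 30 tested members of a list of NMD factors and targets, 1 rose (UPF3B) and 1 fell (SNHG12), with a median of 0.15. An unadjusted p under 0.05 went with 9 higher and 4 lower of the 30 members, against 574 higher and 671 lower of all 15060 genes tested. SMG5, SMG9 and NAT9 were separated upward without a call (10% of the list, against 2.16% of all genes), and SNHG12 and SRSF3 downward (6.67%, against 2.09%). SMG5, which helps to dephosphorylate UPF1, averaged 115 ± 23.8 CPM with CB-6644 and 71.1 ± 12.0 CPM without (SD, n = 4 each; log2 0.67 ± 0.15, edgeR adjusted p 0.135). UPF3B was called without either untreated library in turn and lost in the other 6 leave-one-out fits. The fit without untreated replicate 1 called 7 members higher, that without untreated replicate 2 called 1, and the other 6 called 0.

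Just outside the threshold, at an adjusted p between 0.05 and 0.1, stood 9 genes. They were TFE3, a regulator of lysosomal genes, NABP1, a single-strand DNA binding protein, MED10, a Mediator subunit, LVRN, an aminopeptidase, GOSR2, a Golgi SNARE, RHBDD2 and KRCC1, with values above those of the other libraries in all 4 CB-6644 libraries, and the histone genes H2BC18 and H2AC15 below. They were named after their values were seen.

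RUVBL1, RUVBL2 and RPAP3 were not called. RUVBL1 had 64.1 and 63.8 CPM with CB-6644 and 87.9 and 86.3 CPM with CB-6644+puromycin, against 91.6 and 40.8 CPM untreated and 76.7 and 81.3 CPM with puromycin. The groups overlapped, and the untreated pair spanned the whole range. The log2 change was 0.04 ± 0.18 for RUVBL1, 0.08 ± 0.13 for RUVBL2 and 0.02 ± 0.13 for RPAP3. Of 14 R2TP and prefoldin-like subunits tested 0 were called, with a median of -0.06. Over all genes 0.093% were called, so 0 calls is near that share in lists as short as those of this paragraph. The INO80, SRCAP and TIP60 list had 0 calls among 29 and a median of 0.01, and KAT5, the TIP60 acetyltransferase, was its lowest in p at log2 -0.51 ± 0.15 (edgeR adjusted p 0.372), separated downward. Among 19 snoRNP proteins and assembly factors 0 were called, while NOP58, a core C/D protein, was above in all 4 CB-6644 libraries at log2 0.40 ± 0.13 (edgeR adjusted p 0.447).

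Of 29 gene lists, 26 held no call over 672 members tested, with medians between -0.25 and 0.24. They covered p53, ATF4, HSF1, NRF2, NF-kB and interferon targets, ER chaperones, cholesterol synthesis, ribosomal proteins, the proteasome and the respiratory chain among others. Of all 15060 genes tested 14 were called (0.093%), so 0 calls in the 26 lists is near that share. The lowest of these medians was that of the colon epithelial genes, at -0.25 over 13 members, of which 11 were below 0, KRT18 and KRT19 were separated downward (15.4%, against 2.09% of all genes) and 0 had an unadjusted p under 0.05. Without untreated replicate 1, 16 of these 26 lists held a call, 13 members higher and 30 lower summed over the lists, and 13 of the 30 were cytosolic ribosomal proteins (median -0.22). Without untreated replicate 2 it was 1 list with 1 member lower, and the other 6 leave-one-out fits gave 0. The highest median was that of 14 structured non-coding RNAs, at 0.24, of which RMRP, the RNA of RNase MRP, was at log2 0.65 ± 0.22 (edgeR adjusted p 0.461).

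**Figure D4:**
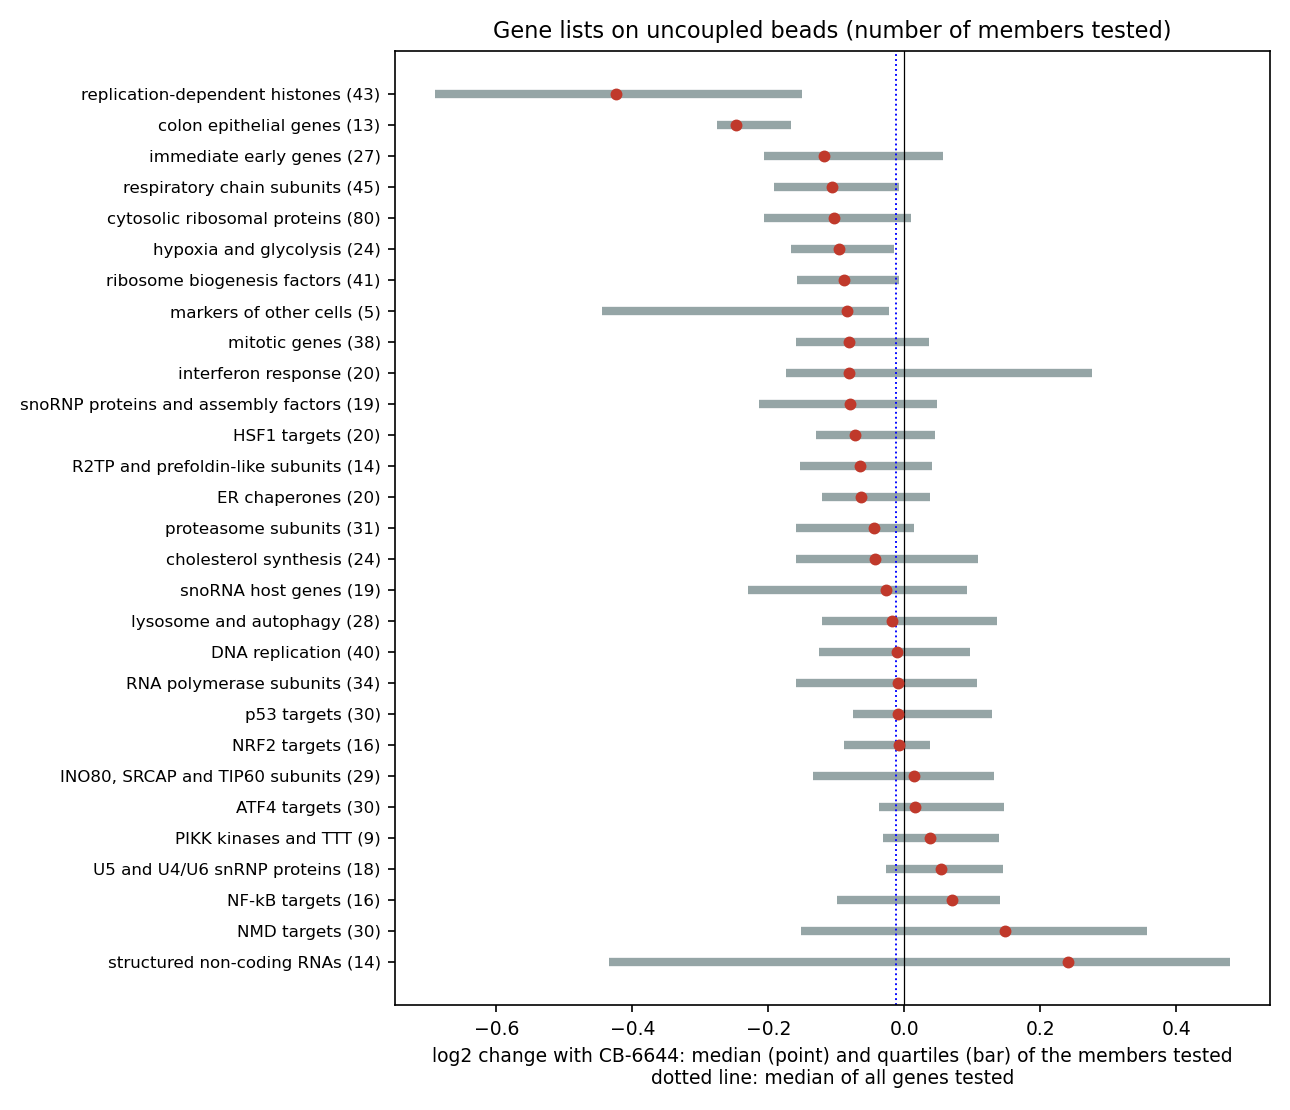
Median log2 change with CB-6644 (point) and quartiles (bar) of the tested members of 29 gene lists, with the number tested in brackets. The histone list stands lowest at -0.42, and the other medians lie between -0.25 and 0.24.

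All 14 called genes had the same sign with and without puromycin, and the smallest adjusted p of their interaction was 0.465 (edgeR). They were called on the change pooled over both puromycin states of these same libraries, which favours that outcome. The shared sign is therefore no separate support. Tested separately, CB-6644 without puromycin gave 0 calls (0%) by edgeR, with 1439 genes at an unadjusted p under 0.05 and 81 calls by DESeq2. With puromycin it gave 1 call (0.00664%), and DESeq2 gave 78. That gene, named after its values were seen, was RNA45SN2, a copy of the 45S ribosomal RNA precursor, with 12.0 and 12.1 CPM with CB-6644+puromycin, against 1.4 and 1.1 CPM with puromycin. CB-6644 alone gave 8.02 and 4.15 CPM, against 12.0 and 7.42 CPM untreated, and these pairs overlapped. RNA45SN2 rose by a log2 change of 3.27 ± 0.40 under puromycin (edgeR adjusted p 0.023), and its interaction had an adjusted p of 0.0598. There were 0 calls with puromycin without CB-6644+puromycin replicate 2 or either puromycin library. Copies of this gene are near-identical, so the count of 1 copy is uncertain. The interaction test gave 0 calls by edgeR, 1370 genes at an unadjusted p under 0.05 and 83 calls by DESeq2. Leaving out untreated replicate 1 or 2 raised the calls without puromycin to 1158 and 2270, those with puromycin to 858 and 832, and those of the interaction to 569 and 2180.

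The same contrast on GFP beads, which recover tagged RUVBL1 with its RNA, used 8 other libraries of the line. The labels do not say whether both bead types received the same lysates. On GFP beads 482 of 15111 genes were called (3.19%), 287 higher (1.9%) and 195 lower (1.29%). All 14 genes called on uncoupled beads had the same sign there, and 5 were called there too: SNORD15B, CREBZF and UPF3B higher, H3C4 and H4C8 lower. They are 5 of the 14, and 1.1% of the 446 GFP-bead calls among genes tested on both. H3C4 was at log2 -0.75 ± 0.19 on GFP beads (edgeR adjusted p 0.042) and H4C8 at -1.0 ± 0.25 (edgeR adjusted p 0.042). Their changes on GFP beads minus those on uncoupled beads came to 0.07 ± 0.22 for H3C4 and 0.04 ± 0.30 for H4C8. CREBZF was at log2 1.22 ± 0.19 there (edgeR adjusted p 0.0033) and UPF3B at 0.99 ± 0.18 (edgeR adjusted p 0.0072).

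The change differed between bead types in 149 of 15976 genes (0.933%), upward on GFP beads in 69 (0.432%) and downward in 80 (0.501%), and SNORD15B was the 1 of the 14 among them. On GFP beads it had 1039.9 and 1796 CPM with CB-6644 and 2804 and 1986 CPM with CB-6644+puromycin, against 14.3 and 17.3 CPM untreated and 9.56 and 13.4 CPM with puromycin. Its log2 change there was 7.10 ± 0.37, and the difference from uncoupled beads was 4.97 ± 0.44 (edgeR adjusted p 2.5e-06). Of the 69 C/D snoRNAs tested, SNORD15B included, 50 were called higher on GFP beads with a median of 3.05, and 27 were called for a difference between bead types. RNVU1-14 and RNVU1-15 were below 0 on GFP beads as well, at log2 -1.53 ± 0.54 (edgeR adjusted p 0.147) and -2.52 ± 0.76 (edgeR adjusted p 0.088). Neither was called for a difference between bead types (edgeR adjusted p 0.424 and 0.674). SNORA50C and SNORA57 were at log2 -0.13 ± 0.89 and -0.38 ± 0.62 on GFP beads, with adjusted p values of the difference of 0.445 and 0.305 (edgeR). The histone list had a median of -0.38 on GFP beads with 3 members called lower and 0 higher, and 0 members were called for a difference between bead types.

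**Figure D5:**
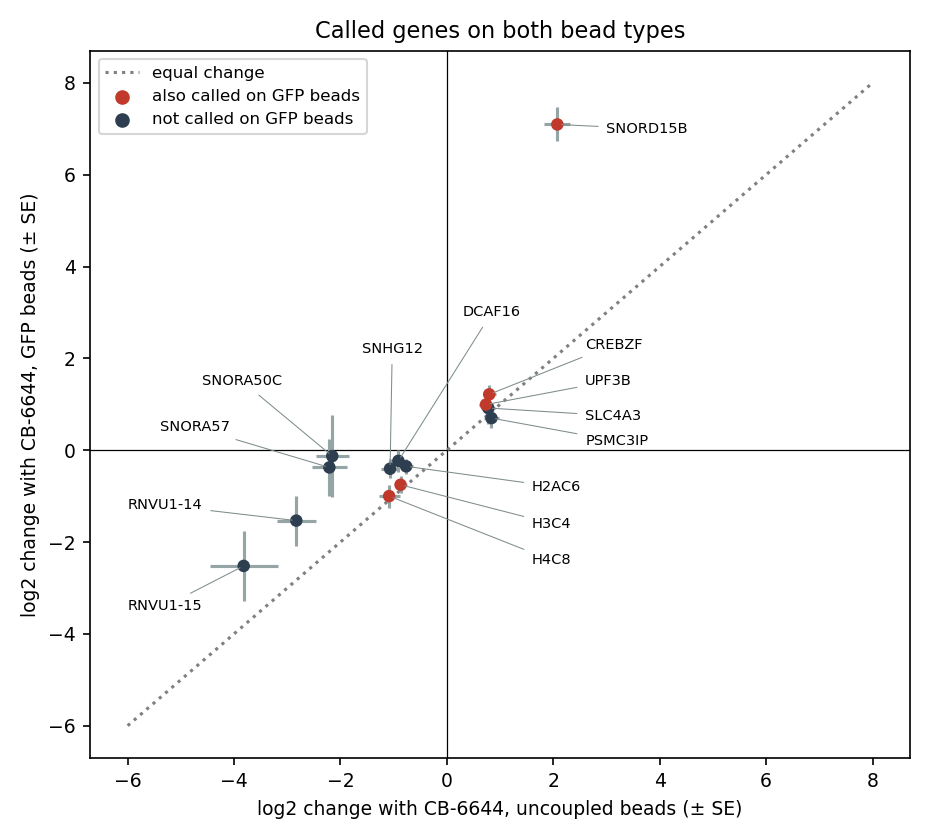
Log2 change with CB-6644 on GFP beads against that on uncoupled beads for the 14 called genes, with standard errors. All points share a sign on both axes, SNORD15B lies far above the line of equal change at 2.08 and 7.10, and H3C4 and H4C8 lie close to it.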

How the data were processed

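RNA recovered on beads was sequenced, and the authors deposited 1 table of raw read counts per gene for all 24 libraries, whole numbers that were not normalized. The submitters' processing notes name TopHat2 2.1.1, featureCounts 2.0.3, MultiQC 1.12, FastQC 0.11.9, bcl2fastq 2.20.0.422 and build hg38. Per the labels' protocols the libraries came from a stranded SMART-Seq kit. Strand setting, multi-mapping rule and annotation are not given in the sources used here, so reads of near-identical, overlapping or antisense genes could be split, merged or dropped. The table had 28307 genes. Of 27790 with a gene ID, 27757 matched RefSeq's gene table (GRCh38.p14), which gave positions and biotypes, and 237 of 517 without an ID matched by symbol.

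Groups came from the labels. The 8 uncoupled-bead libraries were fitted with edgeR 4.0.16 in R 4.3.3 (filterByExpr, TMM, robust quasi-likelihood test, puromycin as covariate), adjusted by Benjamini-Hochberg over 15060 genes and called under 0.05. The biological coefficient of variation was 0.213. A ± after a log2 change is its standard error, the change divided by the square root of F, so its variance is moderated across genes. DESeq2 1.42.0, scaling, filters, terms, thinning, the replicate block and each library left out were alternatives. The code was tested on simulated counts. No replicates were merged, since replicate counts differed well beyond sampling noise (chi-square per degree of freedom 12.9 to 77.7). Of a gene's RefSeq promoter windows, the first not shared with another gene was used. Transcript lengths and a genome were not used here, so levels of different genes are not compared.

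Genes were named if they were RUVBL1, RUVBL2 or RPAP3, if they were among the 12 called genes with the largest change per direction with a mean of at least 5 CPM and separated libraries, or if they were among up to 4 genes of a list with the smallest p. Others are RNVU1-14, RNVU1-15, SNORA50C and SNORA57, which were called, and genes said to be near the threshold or neighbours of named ones. Further members of lists and families, such as KRT18, SMG9, SRSF3, RNU5F-1 and SNORD8, were named outside these rules. They were named with their values known, many because their libraries were separated. Members and lists were chosen with earlier results of these data known, and the small-RNA families were grouped after values had been seen.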

Additional observations from a re-analysis of the deposited data

Results flagged for a closer look

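RNVU1-15 in CB-6644+puromycin replicate 1 stood far from the other CB-6644 libraries, at 0.0346 CPM, where the others had 0.324, 0.259 and 0.345 CPM. It rests on 1 count. Of 34 groups of 4 libraries examined this way it was the 1 that stood out, and chance marks about 1 in 20 such groups.

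The CB-6644 change of SNORD15B differed between bead types, at 7.10 on GFP beads and 2.08 on uncoupled beads in log2, a difference of 4.97 ± 0.44 (edgeR adjusted p 2.5e-06). In all 8 CB-6644 libraries of both bead types SNORD15B was above the libraries without CB-6644 on the same beads.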

How the results depend on the processing

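The 14 calls of CB-6644 on uncoupled beads became 62 (28 higher, 34 lower) with DESeq2, 77 with no filter on low counts, 7 with total-count scaling, 7 with at least 5 CPM in 4 libraries, 7 without the puromycin term and 3 in the fit of all 16 RUVBL1 libraries. The 14 were all among the calls of DESeq2 and of the unfiltered fit, and 7, 7, 7 and 3 of them remained in the others, in that order. Upper-quartile scaling (17), 4 group means (10) and thinned counts (11) stayed within 1.5 times of 14. Replicate numbers did not pair the libraries (correlations of replicate differences from -0.017 to 0.081). With the replicate block the main count was 15, the effect with puromycin 12, the interaction 4 and the bead-type difference 235. DESeq2 gave 81 without puromycin, 78 with puromycin, 83 for the interaction, 1042 on GFP beads and 403 for the bead-type difference.

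Leaving out 1 library gave 4 to 440 calls for the main effect, 0 to 2270 without puromycin, 0 to 858 with puromycin, 0 to 2180 for the interaction, 131 to 1387 on GFP beads and 48 to 347 for the bead-type difference. The cause was not tested. None of the 14 called genes changed direction in any setting. Uncalled genes did: RUVBL1 ranged from -0.13 to 0.33, RUVBL2 from -0.013 to 0.17 and RPAP3 from -0.078 to 0.10 in log2 over these fits. Across genes and settings, 211 values kept their direction and side of the threshold, 87 lost the call and 5, of these uncalled genes, changed sign. Low counts limit RNVU1-14, RNVU1-15, SNORA50C and SNORA57, with 1 to 59 counts per CB-6644 library.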

Other observations

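Transcribed pseudogenes, a group looked at after values had been seen, had 0 calls among 393 tested, where 0.093% of all genes were called. Their median log2 change was 0.12. In 18 of the 393 all 4 CB-6644 libraries lay above the other 4, and in 0 below. Of all 15060 genes tested, 325 lay above (2.16%) and 315 below (2.09%). SBDSP1, a copy of the ribosome assembly gene SBDS, was 1 of the 18, at log2 0.46 (edgeR adjusted p 0.447), and NSUN5P2 was another, at 0.82 (edgeR adjusted p 0.269). Reads shared with the parent genes make these counts uncertain.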
